A study of Mus musculus with 4 samples.

Results

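Receptors for glutamate, GABA, glycine, acetylcholine, serotonin, dopamine and noradrenaline were followed in CA1 of the mouse hippocampus after MK-801 and fear conditioning. Genes were taken by symbol: those of ionotropic glutamate (Gria, Grik, Grid, Grin), metabotropic glutamate (Grm), GABA (Gabr, Gabbr), glycine (Glra, Glrb), nicotinic (Chrn), muscarinic (Chrm), serotonin (Htr), dopamine (Drd) and adrenergic (Adra, Adrb) receptors. They numbered 67 of 10698 annotated genes and were read by 108 of 16281 spots. One of them, Grid2ip, encodes an intracellular partner of the delta receptor and no receptor subunit. Grin1, the obligatory NMDA receptor subunit gene, was not among the annotated genes and was not analysed here.

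The mice were young C57BL/6J males, and each array set conditioned animals given MK-801 (MK C+S, red channel) against animals given MK-801 without conditioning (MK, green channel). All animals thus carried the NMDA receptor blocker, at a labelled 300 micrograms per g body weight, far above usual doses, so the dose actually used is uncertain. MK C+S mice received it 1 h before conditioning, in which 2 min in a new chamber ended with a 1 s foot shock of 0.5 mA, 3 times over. Tissue was collected at 1, 2, 4 or 6 h from the final shock, with 1 array a time and the same dye orientation on all 4. Dye and conditioning therefore cannot be told apart, and a value at a single time has no replicate. How many animals each array stands for was not stated in the labels.

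Values are log ratios read as base 10, so that 0.30 is a 2-fold difference. Ratios were taken as red over green, which makes values above 0 likely higher in MK C+S, but neither base nor direction is stated. Spots at exactly 0 were taken as not measured. A ratio gives no level, so the presence of CA1 markers could not be checked, and a change in RNA per cell cannot be told apart from a change in the number of cells.

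Ionotropic receptors are ion channels assembled from several subunits, each from a gene of its own, and open within milliseconds of transmitter binding. Metabotropic receptors act through G proteins and work more slowly. In CA1, AMPA receptors carry most fast excitation, and NMDA receptors pass calcium when glutamate release coincides with depolarisation, the step that triggers the synaptic strengthening thought to underlie contextual memory. MK-801 enters the open NMDA receptor channel and blocks it.

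Promoter sequences are shown for 2 NMDA receptor genes and for the members with the lowest p among those positive (Chrne) and negative (Gabrr1) on all 4 arrays that RefSeq's table held. Of the 67 genes, 52 had an entry. Each stretch holds the 250 bases before the annotated start, 5′ to 3′ on the gene's strand, from RefSeq (GRCm38.p6). They lie at chr11:115267244-115267493 (minus strand, Grin2c), chr7:45866682-45866931 (minus strand, Grin2d), chr11:70619195-70619444 (minus strand, Chrne) and chr4:33132306-33132555 (plus strand, Gabrr1). Capitals mark the GC box GGGCGG and the core TGACG of the cAMP response element, on either strand.
Grin2c: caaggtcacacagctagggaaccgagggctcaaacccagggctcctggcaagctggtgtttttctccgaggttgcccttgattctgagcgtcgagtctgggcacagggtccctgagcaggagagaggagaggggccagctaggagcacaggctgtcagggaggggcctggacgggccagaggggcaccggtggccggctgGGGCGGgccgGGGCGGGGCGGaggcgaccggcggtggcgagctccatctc
Grin2d: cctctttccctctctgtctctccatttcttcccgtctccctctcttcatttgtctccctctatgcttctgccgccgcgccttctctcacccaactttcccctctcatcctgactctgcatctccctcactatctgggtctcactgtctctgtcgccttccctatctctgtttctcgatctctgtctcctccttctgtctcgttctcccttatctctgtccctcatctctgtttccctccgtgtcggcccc
Chrne: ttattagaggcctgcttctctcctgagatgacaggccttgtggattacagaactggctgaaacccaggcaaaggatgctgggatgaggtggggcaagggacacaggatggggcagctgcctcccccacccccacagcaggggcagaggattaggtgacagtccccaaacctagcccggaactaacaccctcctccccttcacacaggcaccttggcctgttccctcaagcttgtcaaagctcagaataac
Gabrr1: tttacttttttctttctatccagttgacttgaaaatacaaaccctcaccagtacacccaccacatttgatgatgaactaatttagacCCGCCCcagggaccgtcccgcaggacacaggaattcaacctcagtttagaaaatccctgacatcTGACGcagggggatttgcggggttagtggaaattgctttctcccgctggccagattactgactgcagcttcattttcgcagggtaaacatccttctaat
Grin2c held 3 GC boxes, Grin2d and Chrne held 0 of either motif, and Gabrr1 held 1 GC box and 1 TGACG. No TGACG overlapped a GC box in these 4 stretches. Over the 63 windows of the receptor genes, 50.8% held a GC box, against 32.7% of the 32851 windows in the table. TGACG was found in 9.52% of receptor windows, against 17.8% of all windows, and the full element TGACGTCA in 0 receptor windows, against 1.55%. The genes with TGACG were Chrna5, Chrnb1, Chrnb2, Gabrr1, Grm8 and Htr7. These are matches of letters and say nothing of binding.

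A value was obtained for 54, 62, 64 and 63 receptor genes at 1, 2, 4 and 6 h. On all 4 arrays 53 had a value, on 1 to 3 arrays 11, and on none 3, namely the AMPA receptor gene Gria2, the GABA-A receptor gene Gabrd and the serotonin receptor gene Htr2a. Receptor genes lay on both sides of 0 at every time, with medians of 0.030, 0.0075, 0.014 and 0.020 at 1, 2, 4 and 6 h, against 0.0013, -0.00074, -0.00095 and -0.0062 over all measured genes. Of all measured genes, 50.4%, 49.7%, 49.8% and 48.6% were positive, the shares beside which counts of positive genes below are to be read.

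At 2-fold or more, 8 of 54 receptor genes (14.8%) were counted at 1 h, where all genes gave 8.47%. They were 4 positive and 4 negative, 7.41% each, against 5.12% and 3.35% of all genes. At 2 h there were 3 of 62 (4.84%) against 6.58% of all genes, with 1 positive and 2 negative, against 2.44% and 4.14%. At 4 h there were 6 of 64 (9.38%) against 7.07%, with 2 positive and 4 negative, against 2.49% and 4.58%. At 6 h the count was 20 of 63 (31.7%), against 21.9% of all genes. By direction, the positive share at 6 h was 12 of 63, or 19.0%, against 10.2% of all genes, and the negative share 8 of 63, or 12.7%, against 11.7%. After subtraction of a running median along the spot list, 7 were positive and 7 negative at 6 h. With 1 array a time these shares have no test.

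**Figure D1:**
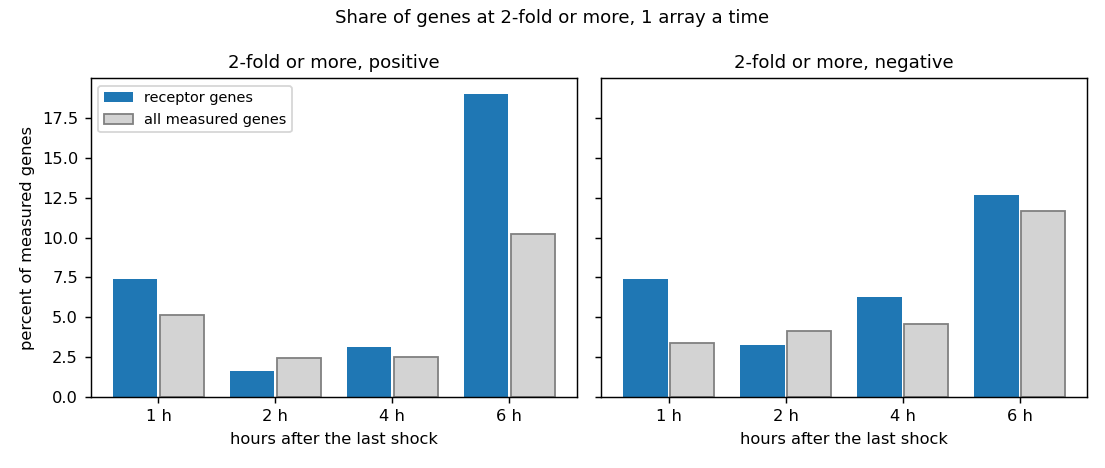
Bars give the percent of measured genes at 2-fold or more, positive (left) and negative (right), at 1, 2, 4 and 6 h (x axis), for receptor genes (blue) and all measured genes (grey). The widest gap is in the positive share at 6 h, 19.0% of receptor genes against 10.2% of all genes; there is 1 array a time and no error bar.

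The 6 h values went with whether a spot had been measured at 1 h. Of the 28 receptor spots with a value at 6 h and none at 1 h, 22 were positive and 15 reached 2-fold upward, with a median of 0.33. Of the 70 receptor spots with a value at both times, 30 were positive and 6 reached 2-fold upward, with a median of -0.063. The same split was present over the whole table, with medians at 6 h of 0.22 for 2685 spots without a 1 h value and -0.025 for 11965 spots with one, and 40.0% against 6.52% at 2-fold upward. At 2 h the receptor spots without a 1 h value had a median of -0.069, against 0.025 for the others, and at 4 h -0.0093 against 0.00057. A spot of this kind contributed at 6 h to 25 receptor genes. Restricted to the 51 receptor genes with a spot measured on all 4 arrays, 15 reached 2-fold at 6 h (29.4%, against 18% of all genes so restricted), with 5 positive and 10 negative (9.80% and 19.6%, against 5.29% and 12.7%). The counts at 6 h leaned positive over all spots and negative over spots measured throughout. All genes so restricted leaned negative too, and the receptor share was above theirs in both directions. At 1 h the restricted counts were 4 positive and 4 negative of 51 (all genes 5.02% and 2.85%, together 7.87%). At 2 h they were 1 and 1 (all genes 2.52% and 3.1%, together 5.61%), and at 4 h 3 and 4 (all genes 2.23% and 4.71%, together 6.95%).

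**Figure D2:**
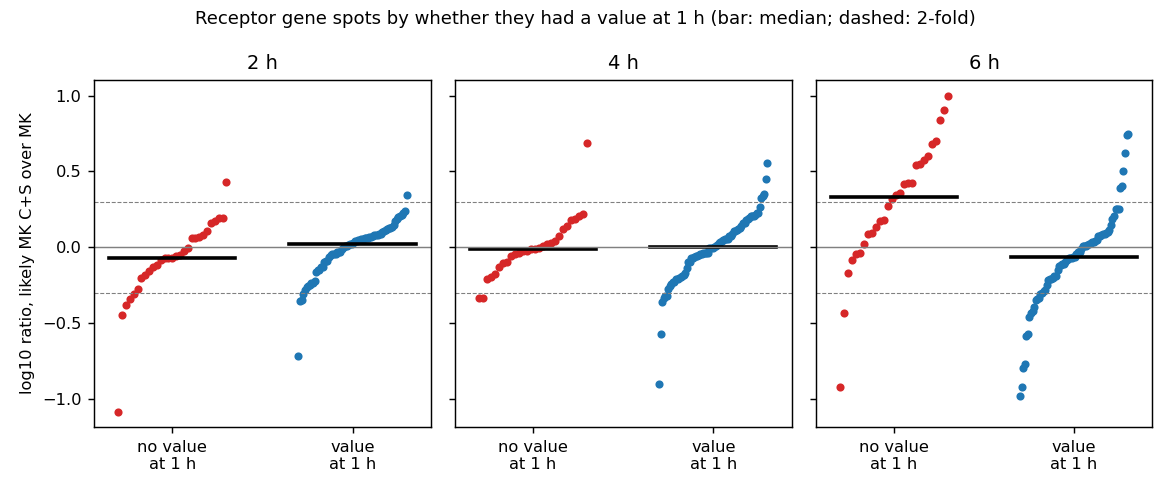
Points are receptor gene spots, with the log10 ratio on the y axis at 2, 4 and 6 h, split into spots with no value at 1 h (red) and with one (blue); black bars are medians and dashed lines 2-fold. At 6 h the red spots have a median of 0.33 and the blue spots of -0.063, while at 2 and 4 h the medians lie within 0.1 of 0.

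The 4 NMDA receptor genes measured here encode the regulatory GluN2 subunits, which set the channel's kinetics and bind glutamate. Grin2b, the subunit typical of young and extrasynaptic receptors, was within 0.077 of 0 at every time, at -0.0035, 0.017, 0.047 and -0.077 at 1, 2, 4 and 6 h. Its spots differed little from each other, at 0.061 and -0.027 at 2 h, 0.041 and 0.053 at 4 h, and -0.044 and -0.11 at 6 h. Grin2c, best known from cerebellar granule cells, was at -0.061, 0.028, 0.020 and -0.19. Its spots gave -0.31 and -0.067 at 6 h, the first just past 2-fold downward, and -0.039 and 0.078 at 4 h. None of the 8 gene values of Grin2b and Grin2c reached 2-fold.

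Grin2a, the subunit that dominates at mature synapses, was at 0.56, -0.19, -0.20 and 0.044, the highest member but 1 at 1 h. The 1 h value, 3.63-fold, came from a single spot, which then gave -0.31, -0.36 and -0.33. The other spot of Grin2a had no value at 1 h and gave -0.069, -0.037 and 0.42 at 2, 4 and 6 h. At 6 h the spots thus stood on opposite sides of 0, each past 2-fold.

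Grin2d, a subunit of interneurons and early development, was at -0.14, 0.20, 0.18 and 0.60, or 4.00-fold at 6 h. Its slope of 0.13 log10 units per h (SE 0.033) had an adjusted p of 0.168 in limma over 8553 genes. The 1 h value came from 1 spot, which had no value at 2 and 6 h, and the 2 and 6 h values came from the other spot, which had none at 1 h. At 4 h, the one time with both, the spots gave 0.18 and 0.18.

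The means over the 4 times were 0.055 for Grin2a (SD 0.35), -0.0040 for Grin2b (SD 0.053), -0.050 for Grin2c (SD 0.100) and 0.21 for Grin2d (SD 0.30; n = 4 arrays each). Adjusted p-values from limma were 0.880, 0.977, 0.744 and 0.496. Leaving out the 1 h array turned the mean of Grin2a to -0.11, and leaving out 2 h or 4 h gave 0.14. The mean of Grin2d was 0.33 when 1 h was left out and 0.079 when 6 h was. The median of the 4 means was 0.025. With each of the 8 spots on its own it was 0.0075, and without the 1 h array -0.026. In spots measured on all 4 arrays, which left Grin2a, Grin2b and Grin2c, all 3 means were negative, with a median of -0.050.

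**Figure D3:**
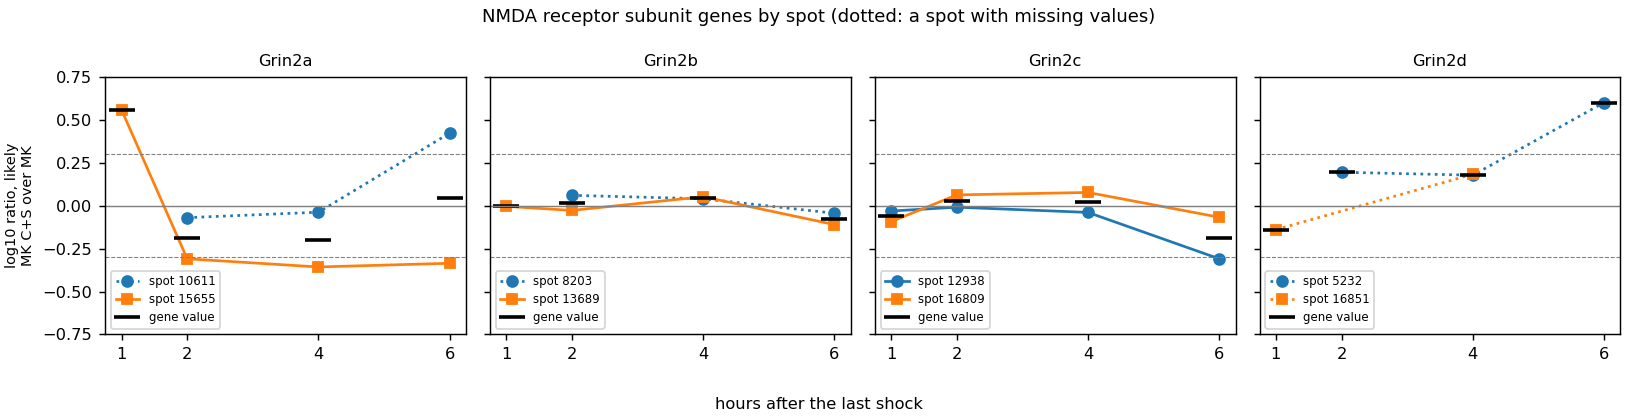
The log10 ratio (y axis) of each spot of the 4 NMDA receptor genes at 1, 2, 4 and 6 h (x axis), with black dashes for the gene value, dotted lines for spots with missing values and dashed lines at 2-fold. Both spots of Grin2b stay near 0, the spots of Grin2a part to 0.42 and -0.33 at 6 h, and the Grin2d gene value passes from one spot to the other.

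Other glutamate receptor genes lay mainly below 0 at 1 h. With the NMDA receptor genes included, 9 of 12 measured were negative with a median of -0.10, against 50.4% of all genes positive. At 2 h 5 of 12 were negative, at 4 h 5 of 13 and at 6 h 9 of 13 (median -0.082). Of 10 interneuron markers (Gad1, Gad2, Pvalb and others), 9 were also negative at 1 h, with a median of -0.12 and a range from -0.27 to 0.027. At 6 h 4 of those 10 were negative, with a median of 0.041. CA3 markers (5 of 7 negative at 1 h, median -0.10) and those of endothelium and mural cells (8 of 12 negative, median -0.098) also lay below 0 at 1 h. So did astrocyte (5 of 8 negative) and oligodendrocyte markers (4 of 6 negative). Positive at 1 h were 3 of 4 CA1 pyramidal, 3 of 3 dentate granule cell, 5 of 8 microglial and 6 of 7 choroid plexus markers. At 2 h 10 of 12 endothelial and mural markers were negative, beside 5 of 12 glutamate genes. At 4 h 7 of 7 CA3 markers were negative, beside 5 of 13 glutamate genes. The part of these cell types in the glutamate values was not tested.

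Among AMPA receptor subunits, Gria3 was at -0.12, -0.25, -0.21 and -0.43 at 1, 2, 4 and 6 h, the only AMPA gene negative on all 4 arrays. Its mean of -0.25 (SD 0.13, n = 4 arrays) had the lowest unadjusted p of the members in limma, 0.00653, and an adjusted p of 0.416. Gria1, which encodes the subunit added to CA1 synapses in potentiation, turned sign between times, at -0.39, -0.043, 0.33 and -0.18. It passed 2-fold downward at 1 h and upward at 4 h. Gria4 was at 0.051, 0.023, 0.13 and -0.21. Each of the 3 rested on 1 spot.

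The delta receptor gene Grid1, a synapse organiser that binds no glutamate, was negative on all 4 arrays, at -0.13, -0.076, -0.15 and -0.34. Its mean was -0.17 (SD 0.11, n = 4 arrays; limma's adjusted p 0.427). The negative values came from 1 spot, at -0.13, -0.22, -0.27 and -0.77, while the other had no value at 1 h and gave 0.072, -0.025 and 0.090. Grid2ip was at -0.068, -0.17, -0.093 and 0.027.

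Kainate receptor genes had 1 spot each. Grik3 had no value at 1 and 2 h, then 0.22 at 4 h and 1.00 at 6 h, the highest value of any member. Grik2, the main kainate receptor subunit of principal neurons, was at -0.21, 0.046, -0.068 and -0.28. Grik5, a high-affinity partner subunit, reached 0.34 at 4 h, with -0.089, 0.082 and -0.067 at the other times, and Grik1 was at 0.12, 0.062, 0.0044 and -0.082. The presynaptic metabotropic receptor gene Grm8 was at -0.30 at 1 h, just past 2-fold, then at -0.14, -0.081 and 0.042. Its spots gave -0.51 and -0.091 at 1 h.

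**Figure D4:**
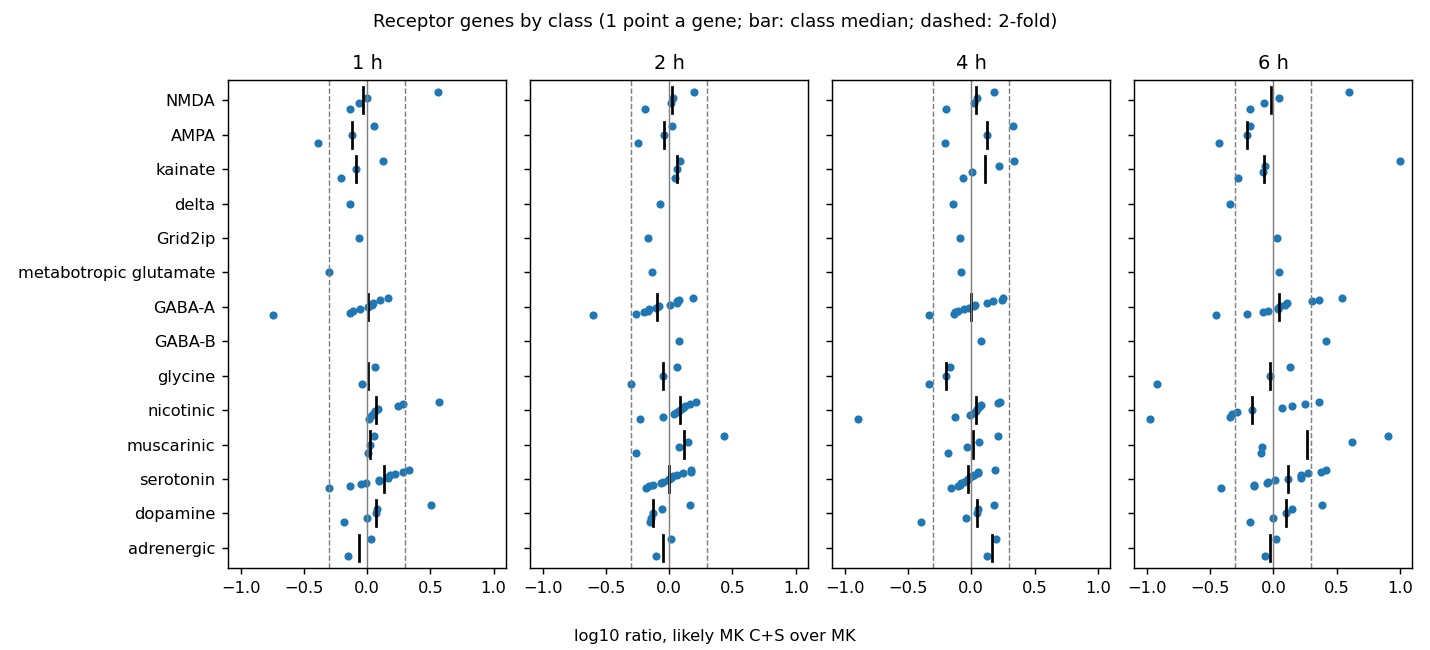
Each point is a receptor gene at 1, 2, 4 or 6 h (panels), placed by its log10 ratio (x axis) and receptor class (rows), with black bars for medians of classes with over 1 measured gene and dashed lines at 2-fold. All 8 nicotinic genes lie right of 0 at 1 h and the widest spread is at 6 h, from -0.98 for Chrnb3 to 1.00 for Grik3.

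GABA-A receptors are chloride channels that carry fast inhibition. Of their 13 genes, 9, 12, 12 and 12 had a value at 1, 2, 4 and 6 h, and 5, 5, 6 and 8 of these were positive. Medians were 0.010, -0.093, 3.9e-05 and 0.046. Class members thus split about evenly except at 6 h, where Gabra5, Gabre and Gabrg3 passed 2-fold upward and Gabrr1 downward.

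The 3 upward values at 6 h each drew on spots with no value at 1 h. Gabra5, whose subunit gives tonic inhibition in hippocampal pyramidal cells, was at -0.084, -0.021 and 0.54 at 2, 4 and 6 h on its only spot. Gabrg3 had spots at 0.68 and 0.70 at 6 h that lacked a 1 h value, and another, measured throughout, at -0.46. Its mean was 0.14, and -0.065 from the spot measured on all arrays. Gabre had a spot at 0.84 without a 1 h value and another, of the same sequence record, at -0.12.

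Gabrr1 and Gabrr2 encode rho subunits, known mainly from the retina, and both were negative on all 4 arrays. Gabrr1 was at -0.75, -0.26, -0.10 and -0.45, with a mean of -0.39 (SD 0.28, n = 4 arrays; limma's adjusted p 0.416). Its spots disagreed, one at -1.51, -0.71, -0.32 and -0.34 and the other at 0.018, 0.19, 0.12 and -0.57. Gabrr2 was at -0.11, -0.61, -0.059 and -0.21 (mean -0.25, limma's adjusted p 0.434). Its low values came from a spot with -1.08 at 2 h and -0.92 at 6 h and no other value, and with the spot measured on all 4 arrays alone the mean was 0.049.

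Gabrq and Gabrg1 had gene values positive on all 4 arrays but small, between 0.021 and 0.081 for Gabrq and between 0.0050 and 0.17 for Gabrg1. The Gabrq values averaged a spot at 0.12, 0.13, 0.21 and 0.19 and another at -0.033, 0.027, -0.17 and -0.11. The Gabrg1 spots gave -0.070 and 0.080 at 2 h. Gabra4, a subunit of extrasynaptic receptors, was at -0.059, -0.16, -0.13 and 0.053, and Gabra3 at 0.010, -0.16, -0.14 and 0.038. Gabra2 was at 0.043, -0.20, 0.25 and 0.11, Gabrb2 at -0.10, 0.24 and -0.041 from 2 h on, and the cerebellar Gabra6 at 0.19, 0.12 and -0.081. The Gabrb2 values averaged opposite spots, at 0.69 and -0.21 at 4 h and at -0.43 and 0.35 at 6 h. The spots of Gabra2 gave -0.21 and 0.42 at 6 h, and those of Gabra3 -0.44 and 0.11 at 2 h. Gabbr1, a subunit of the metabotropic GABA-B receptor, was at 0.081, 0.074 and 0.42 at 2, 4 and 6 h, on 1 spot without a 1 h value.

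Glycine receptors, inhibitory channels of spinal cord and brainstem, included the member with the steepest negative slope but 1. That gene, Glra1, was at 0.065, -0.048, -0.16 and -0.92 at 1, 2, 4 and 6 h. Read as log10, the 6 h value was 8.35-fold, likely lower in MK C+S. The slope was -0.19 per h (SE 0.039; limma's adjusted p 0.135), with an adjusted p of 0.0110 when the 4 h array was left out, 0.204 and 0.192 for the 1 and 2 h arrays, and 0.731 for the 6 h array. Without the 4 h array 4.84% of the 8628 genes tested passed 0.05, and without each other array 0%. The 1 and 6 h values of Glra1 came from 1 spot and its 2 h value from the other. At 4 h, the one time with both, the former gave -0.32 and the latter -0.0082. The slope without the 4 h array thus also joined values of both spots. The spot behind the 6 h value, number 16081, lies in the range from 14000 up. That range held 9 of the 9 receptor values at or below a 5-fold negative ratio, that of Glra1 included, and 20.7% of all receptor values. Over the whole table it held 47.6% of values this low and 25.2% of all values. Glra3 was at -0.31 and -0.33 at 2 and 4 h, past 2-fold downward both times, and at 0.13 at 6 h. Glrb, the beta subunit that anchors the receptor to gephyrin, was at -0.045, 0.059, -0.20 and -0.028.

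Nicotinic receptor genes, whose products form cation channels opened by acetylcholine, were positive in 8 of 8 at 1 h, with a median of 0.071 and a range from 0.017 to 0.57. They were positive in 7 of 9 at 2 h, 7 of 10 at 4 h and 4 of 9 at 6 h, where the median was -0.17. Over all measured genes 50.4%, 49.7%, 49.8% and 48.6% were positive at 1, 2, 4 and 6 h. The smallest of the 1 h values, Chrna4 at 0.017, is the mean of spots at -0.045 and 0.079, and that of Chrng, 0.042, of spots at -0.14 and 0.22.

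Chrnb3, a subunit of midbrain and habenular receptors, had the steepest slope, at 0.060, -0.23, -0.90 and -0.98. Read as log10, this was 9.49-fold at 6 h and 7.87-fold at 4 h, likely lower in MK C+S. The slope of -0.22 per h (SE 0.038) had an unadjusted p of 0.000788 and an adjusted p of 0.116 in limma, the lowest among the members. Without the 4 h array the adjusted p was 0.0112, and without the 1, 2 and 6 h arrays 0.219, 0.164 and 0.401. Chrnb3 rested on 1 spot, measured on all 4 arrays. Its number in the array's list, 16631, lies in the range from 14000 up. That range held 9 of the 9 receptor values at or below a 5-fold negative ratio, those of Chrnb3 included, and 20.7% of all receptor values. Over the whole table it held 47.6% of values this low and 25.2% of all values.

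Chrne, which encodes the epsilon subunit of adult muscle receptors, was positive on all 4 arrays, at 0.57, 0.12, 0.21 and 0.25. Its 1 h value, 3.71-fold, was the highest of the members at that time, and its mean was 0.29 (SD 0.20, n = 4 arrays; limma's adjusted p 0.416). Chrnb2, the main beta subunit of brain receptors, was also positive on all 4, at 0.24, 0.21, 0.043 and 0.072 (mean 0.14, SD 0.099; limma's adjusted p 0.434). Chrna4, its usual partner, was at 0.017, 0.041, 0.064 and 0.15. Chrna7, the homomeric receptor of hippocampal interneurons, had values only at 1 h (0.28) and 4 h (-0.0064).

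Among the remaining muscle subunit genes, Chrnb1 was at 0.082, 0.061, 0.038 and -0.35, with spots at 0.10 and -0.79 at 6 h. Chrng was at 0.042, 0.084, 0.23 and -0.33, with spots at -0.069 and -0.58 at 6 h, and Chrnd, read by 1 spot, was at 0.11, 0.024 and -0.17 from 2 h on. Chrna5 was at 0.026, -0.046, 0.076 and -0.29, and Chrna6 at 0.16, -0.13 and 0.36 from 2 h on.

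Muscarinic receptors are the G protein-coupled receptors of acetylcholine. Chrm3, which signals through phospholipase C, had no value at 1 h and was then at 0.43, 0.21 and 0.91, or 8.05-fold at 6 h, on 1 spot. Chrm2, an inhibitory autoreceptor, was at 0.0047, 0.081, -0.19 and 0.62. Chrm1, the abundant muscarinic receptor of CA1 pyramidal cells, had gene values within 0.15 of 0, at 0.023, 0.15, -0.033 and -0.088. Its spots gave -0.21 and 0.036 at 6 h. Chrm4 was at 0.056, -0.26, 0.058 and -0.098.

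Serotonin receptor genes numbered 14, of which 8 of 12 were positive at 1 h (median 0.13), 6 of 13 at 2 h, 5 of 13 at 4 h and 8 of 13 at 6 h (median 0.12). Past 2-fold were Htr1d (0.33) and Htr6 (-0.30) at 1 h, 0 at 2 and 4 h, and Htr6 (0.42), Htr5a (0.38) and Htr3b (-0.42) at 6 h. The spots of Htr5a gave 0.74 and 0.013 at 6 h, and 0.15 and -0.25 at 1 h. Those of Htr1d gave 0.20 and 0.46 at 1 h, and 0.041 and -0.34 at 6 h. Htr6, a stimulator of adenylyl cyclase, was at -0.30, 0.17, -0.027 and 0.42. Both its spots were negative at 1 h, at -0.24 and -0.37, and at 6 h they gave 0.74 and 0.094. Htr3b, a subunit of the channel-type serotonin receptor, was at 0.18, 0.0099, 0.18 and -0.42, and its partner Htr3a at 0.093, 0.17, -0.054 and -0.041.

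Htr1a, the inhibitory serotonin receptor dense in CA1, was at 0.22, -0.051, 0.053 and 0.27. The spot measured throughout gave 0.22, 0.076, 0.21 and -0.029, and the 6 h value came from the other, at 0.57, which had no value at 1 h. Htr1b likewise had spots at 0.55 and -0.11 at 6 h. Htr4, which raises pyramidal cell excitability, was at 0.28, -0.0053, 0.050 and 0.22, and Htr7 at 0.094, 0.11, 0.025 and -0.048. The spots of Htr7 gave -0.13 and 0.34 at 2 h. Htr1f, Htr2b, Htr2c and Htr5b had gene values between -0.16 and 0.22 at every time measured, but the spots of Htr1f gave -0.38 and 0.053 at 2 h.

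Dopamine receptors have both stimulatory and inhibitory members. Drd1, which stimulates adenylyl cyclase, was at 0.50, -0.13, 0.047 and 0.39, past 2-fold upward at 1 and 6 h, on 1 spot. Drd2, an inhibitory receptor, was at 0.075, -0.054, -0.40 and -0.18, and its spots were both negative at 4 h, at -0.57 and -0.23. Drd4 was at -0.18, 0.16, 0.18 and 0.10, Drd3 at 0.068, -0.15, 0.056 and -0.0013, and Drd5 at 0.0017, -0.15, -0.041 and 0.15. The spots of Drd3 gave 0.35 and -0.24 at 4 h, and those of Drd4 0.40 and -0.20 at 6 h. The adrenergic genes Adra1b and Adra2c had gene values between -0.16 and 0.19, but the spots of Adra1b gave -0.39 and 0.25 at 6 h.

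In the same direction at 2 or more times, 2-fold was reached by 5 of 64 receptor genes (Chrm3 and Drd1 upward, Chrnb3, Gabrr1 and Glra3 downward), against 5.57% of all genes measured at 2 or more times. The same sign on all 4 arrays was found for 10 of 53 receptor genes (18.9%), against 21.8% of all genes. The positive ones were Gabrg1, Gabrg3, Gabrq, Chrna4, Chrnb2 and Chrne, and the negative ones Gria3, Grid1, Gabrr1 and Gabrr2. Of these 10 genes with the same sign, Chrnb2, Chrne and Gria3 had a single spot, and each of the others had a spot of the opposite sign at some time.

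The mean over the 4 times was tested for a shared difference between the groups, and its error was the spread from time to time. In limma 0 of 53 receptor genes passed an adjusted p under 0.05, against 0% of the 8553 genes tested. At an unadjusted p under 0.05 there were 7 of 53, 2 positive (Chrne, Chrnb2) and 5 negative (Gria3, Gabrr1, Chrnb3, Grid1, Gabrr2), where 4.26% and 7.12% of all genes did so. The slope on hours gave 0 of 53 at an adjusted p under 0.05, against 0% of all genes, and 7 at an unadjusted p under 0.05, against 14.6% of all genes. Slopes were positive in Grin2d, Htr6 and Htr5a (all genes 4.64%) and negative in Chrnb3, Glra1, Chrnb1 and Htr1d (all genes 9.97%). Both lists changed over spots measured on all 4 arrays, again in limma. In the mean Gabre entered (negative, unadjusted p 0.0392, adjusted p 0.436) and Gabrr2 left (unadjusted p 0.678). In the slope Gabrg3 and Grid1 (negative) and Gabrr2 (positive) entered, with adjusted p-values from 0.131 to 0.195. Grin2d and Glra1 had no such spot, so their slopes joined values of different spots. Without the 4 h array 2 of 53 members passed in the slope, Chrnb3 and Glra1, both negative. Of the 8628 genes then tested, 4.84% passed in either direction. The mean without that array called 0 members and 0.0116% of those genes.

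**Figure D5:**
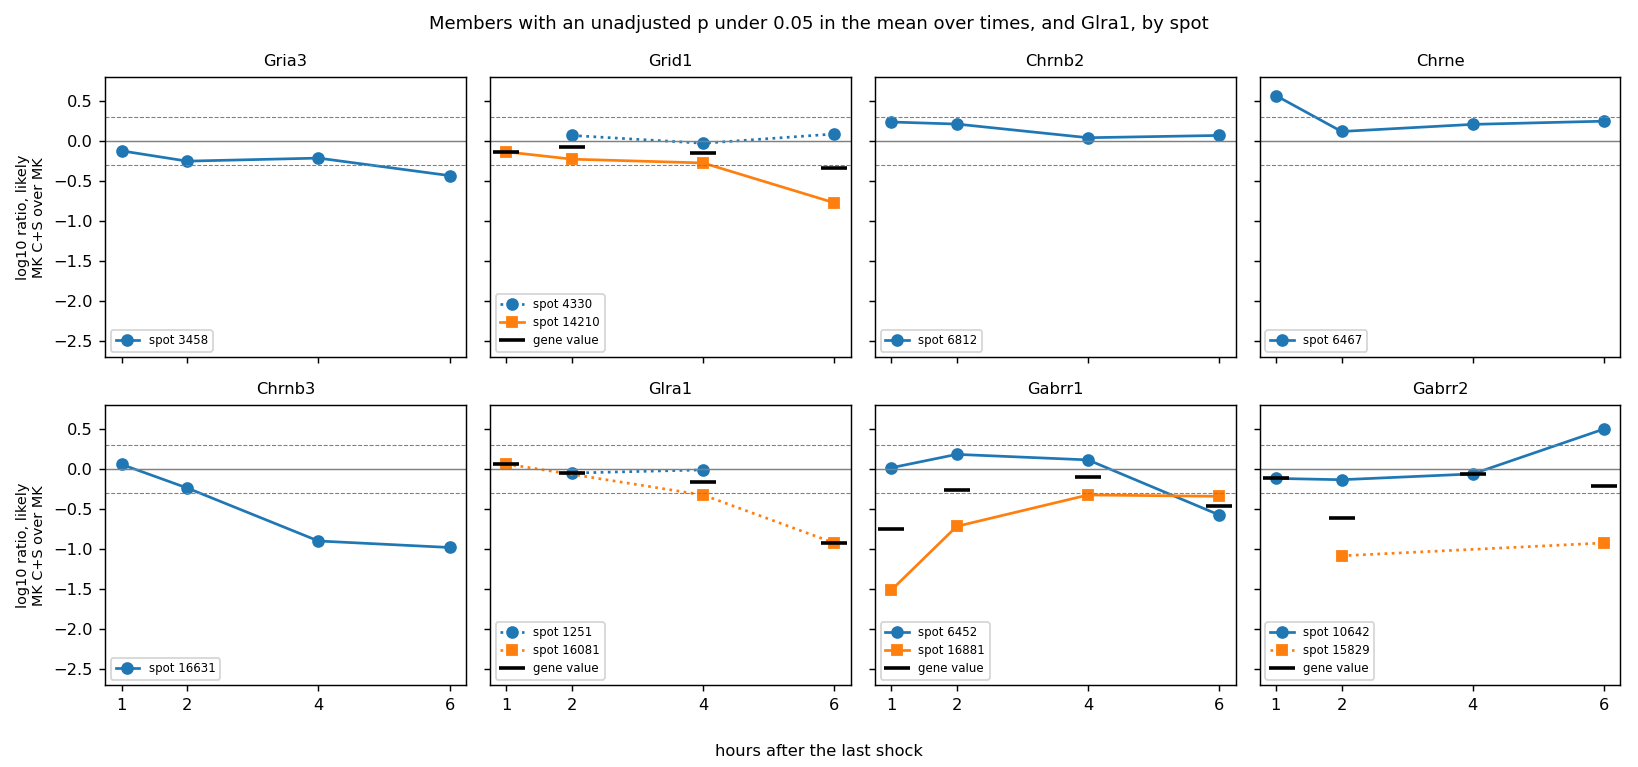
The log10 ratio (y axis) at 1, 2, 4 and 6 h (x axis) of each spot of the 7 genes with an unadjusted p under 0.05 in the mean, and of Glra1, with black dashes for gene values of genes with over 1 spot, dotted lines for spots with missing values and dashed lines at 2-fold. Chrnb3 lies at -0.98 at 6 h on its 1 spot, and in Gabrr1, Gabrr2 and Grid1 the lowest values (-1.51, -1.08 and -0.77) lie on 1 of the 2 spots.

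Spots of the same gene often differed in sign. Of pairs of spots of a receptor gene with a value at the same time, 8 of 18 had the same sign at 1 h, 14 of 35 at 2 h, 19 of 37 at 4 h and 16 of 36 at 6 h. Over all genes with 2 or 3 spots the share was 53.1%, 51.8%, 54.4% and 50.3%. The median difference within a pair was 0.20, 0.18, 0.20 and 0.32 for receptor genes, against 0.14, 0.14, 0.13 and 0.25. Of the 40 receptor genes with 2 or 3 spots, 22 were read by different sets of spots at different times. Across receptor genes, Spearman's rho between arrays was 0.029 from 1 to 2 h (53 genes), 0.34 from 2 to 4 h (62 genes) and 0.11 from 4 to 6 h (63 genes), against 0.17, 0.30 and 0.34 over all genes measured on both arrays. These are descriptions, since all genes share the arrays.

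Scaffolds and auxiliary subunits hold receptors at the synapse. Of 47 listed, 30 were measured, and 9 of 28, 12 of 28, 17 of 30 and 11 of 29 were positive at 1, 2, 4 and 6 h, with medians of -0.062, -0.027, 0.017 and -0.029. The shares over all measured genes were 50.4%, 49.7%, 49.8% and 48.6%. Lin7c, a small PDZ protein of the NMDA receptor's transport complex, was negative on all 4 arrays, at -0.87, -0.61, -0.57 and -0.23 (mean -0.57, SD 0.26, n = 4 arrays; limma's adjusted p 0.379). These gene values are means of up to 3 spots, which were not looked at one by one. The fusion ATPase Nsf, which binds AMPA receptors, had a mean of -0.17 and was at -0.26, 0.0028, -0.099 and -0.34. Gabarapl1, a relative of the GABA-A receptor trafficking protein, had a mean of -0.13, and Homer2, which ties group I metabotropic receptors to the postsynaptic density, of 0.11. In limma 0 of 27 tested passed an adjusted p under 0.05, and 2, Lin7c and Nsf, had an unadjusted p under 0.05 in the mean, both negative, where 7.12% of all genes were negative at that p.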

How the data were processed

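RNA from CA1 was hybridised to 4 arrays with 2 dyes, 1 a time, with MK in Cyanine-3 and MK C+S in Cyanine-5 per the labels. Each deposited value is a spot's log ratio, read here as log10. Its base and direction, the authors' normalization, and the scanner and software were not given in the sources used here. Deposited column medians were 0. Exact zeros (22.7%, 9.34%, 7.39% and 10.0% of spots at 1, 2, 4 and 6 h) were treated as not measured, and the median of the other spots (between -0.0054 and 0.0055) was subtracted. A gene's value is the mean of its measured spots. The platform annotation named 13738 spots with 1 gene, 52 with several and 2491 with none; Entrez identifiers matched to RefSeq's table (GRCm38.p6) changed 0 symbols. No intensities were used, so signal over background is unknown, and the number of arrays limits precision.

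Models were fitted in limma 3.58.1 under R 4.3.3 (lmFit, eBayes), two-sided, Benjamini-Hochberg adjusted at 0.05 over the 8553 genes with a value on all 4 arrays. On simulated data with 8553 genes, the mean recovered 0 of 200 genes shifted by 0.3 and 167 of 200 shifted by 0.6 (9 unchanged genes called); the slope recovered 87 of 200 with a change of 1.2 from 1 to 6 h and 184 of 200 with 2.4. The members, classes, scaffold list, markers and alternatives were chosen with earlier results of these data known. By rule the text names all Grin genes, up to 3 members a class with the largest absolute mean, members with an unadjusted p under 0.05 in either fit, the 5 highest and 5 lowest at each time, members at 2-fold in 1 direction at 2 or more times, members with 2 or more spots, and the 4 largest absolute means of the scaffold list; the remaining members are given for completeness. Alternatives covered threshold, log base, centring, zeros, spot summary, spot order, array scale and weights, filters, the time covariate and leaving out each array. Added after the data were seen was the use of spots measured on all 4 arrays only. Promoters were searched with Python 3.11.15.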

Additional observations from a re-analysis of the deposited data

How the results depend on the processing

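With 1 array a time, counts at 2-fold depend most on the assumed log base. Read as natural logs, the counts at 1, 2, 4 and 6 h were 1, 0, 1 and 4 receptor genes, and read as base-2 logs 0 at each time, against 8, 3, 6 and 20. At 1.5-fold they were 15, 13, 20 and 32, and at 3-fold 4, 1, 1 and 7. With only genes of 2 or more measured spots, 4, 1, 1 and 8 remained of 18, 35, 35 and 34 measured. With exact zeros kept as a ratio of 1 the 1 h count was 5. Other centring, spot summaries, removal of a running median over 51 spots and spots measured on all 4 arrays kept the totals within 1.5 times, though not each direction. With the running median removed, 7 were positive and 7 negative at 6 h (12 and 8 otherwise), and 1 and 3 at 4 h (2 and 4 otherwise). Negative genes at 1 h numbered 2 without centring or with the running median removed, against 4. The mean called 0 receptor genes under all 12 alternatives, with 5 to 8 at an unadjusted p under 0.05. The slope called 0 under 13 of 14 alternatives; leaving out each array in turn gave 0 to 2. Its unadjusted count ranged from 3 (running median removed, arrays scaled alike, or array weights) to 10. The median of the NMDA receptor gene means, 0.025, ranged from -0.026 to 0.062 when each array was left out and was -0.050 with spots measured on all 4 arrays, so its sign is not settled. No paired analysis was possible because each time has 1 array and the labels give no replicate numbers.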

Other observations

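Very low values of receptor genes lay on spots with high numbers in the array's list, a pattern noticed in the data and given as values. Of 367 receptor values, 9 were at or below a 5-fold negative ratio, and 9 of these 9 came from 6 spots numbered 14000 or above (Chrnb1, Chrnb3, Glra1, Gabrr1, Gabrr2 and Grid1). Such spots gave 20.7% of all receptor values. Over the whole table, 47.6% of the 670 values this low came from these numbers, which held 25.2% of the values. Of the 5 receptor values at or above a 5-fold positive ratio, 0 came from them, against 58 of 389 over the whole table, so a count of 0 among 5 is near the background.

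Htr2c, a serotonin receptor known for its abundance in choroid plexus epithelium, was at -0.010 at 1 h, with spots at -0.015 and -0.0059. Choroid plexus markers were at a median of 0.49 at that time, with 6 of 7 measured positive (range -0.24 to 0.71). From 2 h on, Htr2c was at 0.062, -0.16 and -0.16, and the marker medians were -0.014, -0.0011 and -0.025 with 4 of 8 positive at each time.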
